A study of Mus musculus with 4 samples.

Results

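Low-Malat1 neurofilament-positive barcodes are droplets whose RNA holds neuronal cytoskeleton messages but little of the nuclear RNA Malat1 and little mitochondrial RNA. They were proposed as neurite-like, that is, as possible pieces of axon or dendrite without a nucleus. In all 4 libraries, a barcode was taken when it had at least 500 genes and 1000 to 2500 UMIs (unique molecular identifiers, each standing for 1 captured RNA molecule). In addition, Malat1 had to make up at most 2% of its UMIs and the mitochondrial genome at most 3%, and Nefl, Nefm, Ina and Tubb3 together had to give at least 4 UMIs. Barcodes with at least 4 such UMIs are called neurofilament-positive here, although Tubb3, a tubulin, can meet this limit alone. All limits were met by 295 of 23371 barcodes.

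The libraries came from E14.5 mouse cerebella, from which cells expressing tdTomato were sorted and sequenced with a 10x Genomics 3′ kit. The 2 control libraries carried the genotype Atoh1-Cre/+; R26LSL-tdT/+. The 2 knockout libraries (En1/2 CKO) had the same Atoh1-Cre/+ and R26LSL-tdT/+ alleles together with floxed Engrailed genes, En1lox/lox and En2lox/lox, so both groups share the Cre driver and the reporter, and no Cre-free group was used here. Atoh1-Cre acts in the Atoh1 lineage of the rhombic lip, where it is meant to delete both Engrailed genes. Animals were pooled for each library, so a library is the unit of replication and differences between single embryos cannot be seen. No label says whether the libraries of a group came from separate litters, and the p-values measure only the spread between these libraries.

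Malat1 is a long non-coding RNA that is retained in nuclear speckles, and a low share of it is a usual sign that a droplet holds little nuclear RNA. Neurofilament light and medium chains (Nefl, Nefm), alpha-internexin (Ina) and class III beta-tubulin (Tubb3) build the cytoskeleton of young neurons. Axons and growth cones are known to hold messenger RNAs for cytoskeleton, ribosomal and mitochondrial proteins, while precursor RNAs and many long non-coding RNAs stay in the nucleus.

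The low-Malat1 barcodes numbered 85 in control 1, 168 in control 2, 30 in CKO 1 and 12 in CKO 2. Their median Malat1 share was 1.19%, 1.34%, 0.668% and 0.627% in that order, and their median mitochondrial share was 0.684%, 0.590%, 0.465% and 0.289%. These shares chose the barcodes and are given as a description. The 4 libraries held between 14998150 and 33709450 UMIs in 4983 to 7083 barcodes. Library pairs had 7 to 17 barcode sequences in common, and no such sequence was a low-Malat1 barcode in both libraries of a pair. Across the low-Malat1 barcodes of a library there were 117050, 258142, 46199 and 17217 UMIs, so that 1 UMI stood for 8.77, 4.00, 22.1 and 59.5 CPM (a gene's UMIs per 1000000 UMIs outside the genes of the rule). A gene with no UMI could therefore be read to no finer than 3 UMIs in any library.

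**Figure D1:**
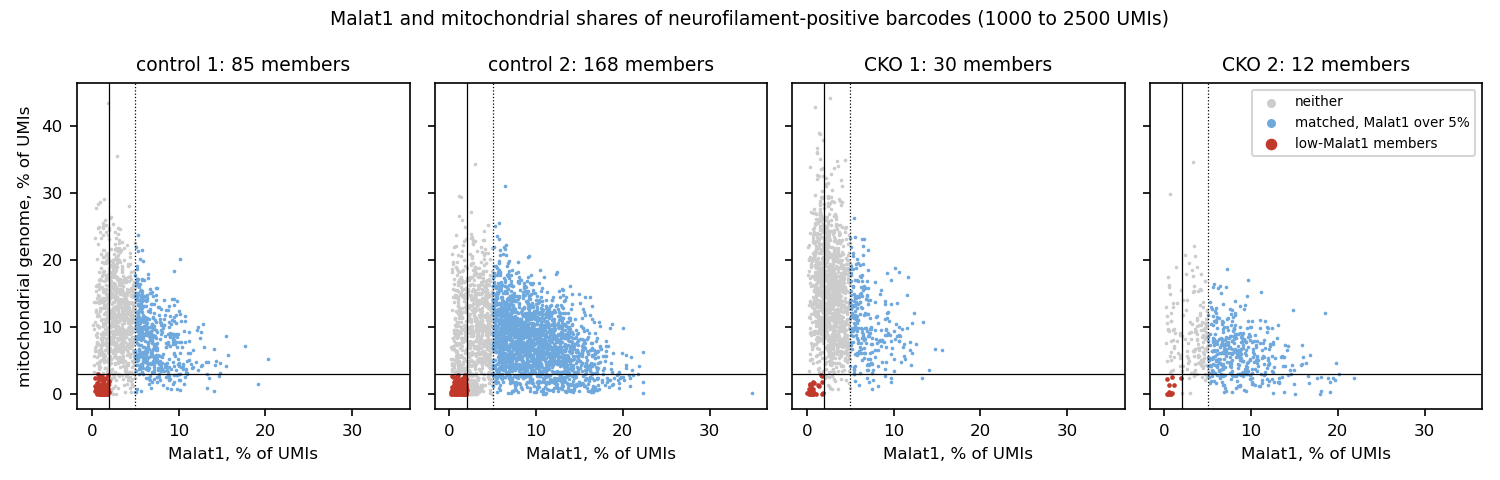
Each point is a barcode of 1000 to 2500 UMIs with at least 4 neurofilament and tubulin UMIs, plotted by the Malat1 share (x axis, % of UMIs) and the mitochondrial share (y axis, % of UMIs) in each library. Solid lines mark the limits of 2% and 3% and the dotted line the reference limit of 5%; the low-Malat1 barcodes (red) sit at the lower left corner.

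The barcodes just inside and just outside each limit were compared. The 94 members with Malat1 between 1.5% and 2% of UMIs had Meg3 at 584 CPM of all UMIs, and the 96 barcodes just outside, between 2% and 2.5%, had 612. Ribosomal protein genes made up 12.7% of UMIs inside and 12.6% outside that limit. At the neurofilament limit, the 37 members with exactly 4 UMIs of the 4 genes and the 38 barcodes with 3 had ribosomal shares of 12.4% and 12.9%. At the mitochondrial limit the ribosomal share was 11.2% in 32 barcodes inside and 9.33% in 38 outside, with Meg3 at 396 and 287 CPM. At the lower UMI limit Meg3 was at 219 CPM in 22 barcodes inside and 373 in 51 outside. These Meg3 levels rest on 20 and 18 UMIs at the mitochondrial limit and on 5 and 18 at the UMI limit, so no step is read from them.

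The low-Malat1 barcodes were set against 2 references from the same libraries. The Meis2 reference took barcodes of the same UMI range with at least 2 Meis2 UMIs and Malat1 above 5% (173, 1219, 155 and 181 barcodes). Meis2 is a homeobox transcription factor of young cerebellar nuclei neurons, among others. The matched reference met the same limits on genes, UMIs and neurofilament as the low-Malat1 barcodes but had Malat1 above 5% (511, 2081, 272 and 410 barcodes). The references overlap in 146, 1123, 124 and 115 barcodes and are not independent of each other. Both references had high mitochondrial shares, with library medians of 5.19% to 10.0% in the Meis2 reference. UMI totals also differed, with library medians of 1211.5 to 1473 in the low-Malat1 barcodes and 1840 to 2039 in the Meis2 reference. Counts were summed per library and kind of barcode and tested in the 3 libraries with at least 20 low-Malat1 barcodes, with the library as a block. CKO 2, with 12, entered only added fits. Since Malat1, mitochondrial share and Meis2 chose the kinds, genes that vary with them among barcodes had to differ, and the counts below describe the kinds chosen this way.

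Low-Malat1 barcodes differed widely from the Meis2 reference. Of 5435 genes tested, 1031 were higher (19.0% of those tested) and 1172 lower (21.6%) by edgeR's quasi-likelihood test at an adjusted p of 0.05. In all, 40.5% passed. Against the matched reference, 1130 of 6529 genes were higher (17.3%) and 1387 lower (21.2%), or 38.6% in all. The median log2 fold change over all genes was -0.07 against the Meis2 reference and -0.09 against the matched reference. Without the TMM scaling factors these medians moved to -0.18 and -0.20, a shift that applies to every gene alike, and changes below are read relative to these medians. DESeq2 called fewer genes, 982 and 1155.

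Long non-coding RNAs that stay in the nucleus were the most depleted group. Of 17 tested genes on that list, 13 were lower and none was higher against the Meis2 reference, with a median log2 fold change of -2.60. Against the matched reference 11 of 16 were lower and 1 was higher, with a median of -2.40. Meg3, a maternally expressed imprinted RNA (ENSMUSG00000021268, GRCm38 chr12:109541001-109571726), stood at 439, 420, 155 and 357 CPM in the low-Malat1 barcodes of control 1, control 2, CKO 1 and CKO 2. In the Meis2 reference it stood at 3770, 3639, 3883 and 5542 CPM. The 2 sets of libraries do not overlap, and the fall was 9.37-fold (log2 -3.23 ± 0.20 SE, adjusted p 1.9e-11). Rmst, an RNA of neural progenitors and midbrain, had 96.3 ± 28.4 CPM (SD, n = 3) in the low-Malat1 barcodes and 1379 ± 254 in the reference (log2 -3.55 ± 0.22). Snhg11, which hosts small nucleolar RNAs, was down by 3.70 on the log2 scale, and Kcnq1ot1, an antisense imprinted RNA, by 2.84.

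Xist, the RNA that coats the inactive X chromosome, gave 0, 23, 14 and 3 UMIs in the low-Malat1 barcodes. The Meis2 reference held 3.48, 3510, 4942 and 1319 CPM, so control 1 carried almost no Xist in either kind. The fitted fall of 4.69 on the log2 scale therefore rests on control 2 and CKO 1.

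The most abundant RNA of the list did not follow. Gm42418, a locus that overlaps ribosomal RNA repeats, had 5131, 4904, 2874 and 4401 CPM in the low-Malat1 barcodes and 3008, 4192, 3265 and 4157 in the Meis2 reference. The libraries overlap, and the change of 0.38 ± 0.16 did not pass the test (adjusted p 0.058). Against the matched reference it was higher by 0.42 (adjusted p 0.024).

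Among the deeply depleted RNAs were the hosts of neuronal microRNA clusters. Mir99ahg (ENSMUSG00000090386, chr16:77236317-77773427, plus strand) and Mir100hg (ENSMUSG00000074415, chr9:41327077-41716994, plus strand) are long spliced RNAs that contain microRNA hairpins. Mir100hg was chosen after its values were seen. The mature microRNAs below lie inside these hosts on the same strand, and each is printed with its seed, bases 2 to 8, in capitals (RefSeq, GRCm38.p6). The kit captures polyadenylated RNA, so the host was counted and the mature microRNA was not.

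miR-99a-5p in Mir99ahg: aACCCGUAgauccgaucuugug
miR-100-5p in Mir100hg: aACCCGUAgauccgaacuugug
let-7c-5p in Mir99ahg: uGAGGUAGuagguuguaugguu
miR-125b-5p in both hosts: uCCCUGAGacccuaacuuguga

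The hosts thus carry the same families, since miR-99a-5p and miR-100-5p share the seed ACCCGUA and miR-125b-5p lies in each. Mir99ahg gave 7, 20, 4 and 2 UMIs in the low-Malat1 barcodes, or 61.4, 79.9, 88.4 and 119 CPM. The Meis2 reference had 1182, 1002, 1164 and 838 CPM. The difference was 13.2-fold (log2 -3.72 ± 0.23, adjusted p 1.9e-11). Mir100hg had 140, 172, 133 and 119 CPM in the low-Malat1 barcodes and 1377, 1631, 1181 and 1213 in the reference (log2 -3.14 ± 0.20). Both hosts were separated in each of the 4 libraries. Mir124a-1hg, host of the neuronal microRNA miR-124, was lower by a smaller margin, at 61.1 ± 37.4 against 318 ± 122 CPM (log2 -2.18 ± 0.27, adjusted p 1.4e-06).

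**Figure D2:**
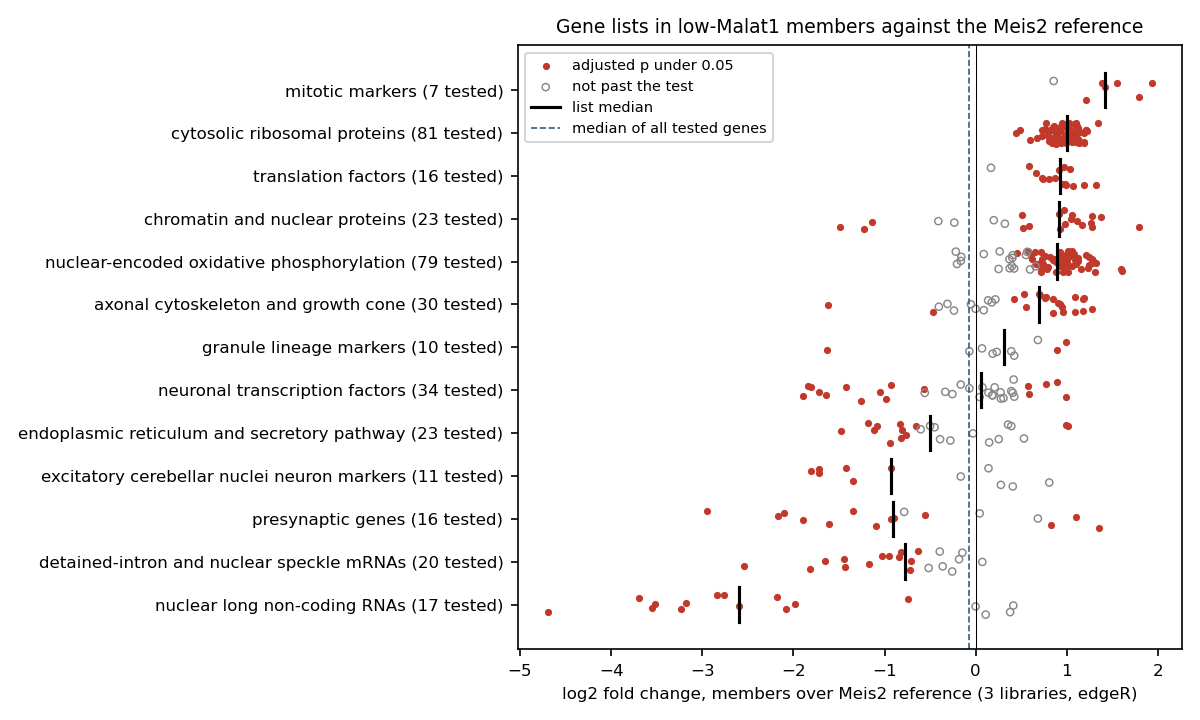
Log2 fold change of each tested gene of 13 lists in low-Malat1 barcodes over the Meis2 reference (x axis; 3 libraries, edgeR); filled points passed an adjusted p of 0.05, vertical bars are list medians. The nuclear long non-coding RNAs lie lowest, with a median of -2.60, and the mitotic markers and ribosomal protein genes highest, at 1.42 and 1.00.

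Messages that are partly held in the nucleus with unspliced introns were lower as well. Of the 20 genes on the list of detained-intron and nuclear speckle mRNAs, 13 were lower and none higher against each reference, with medians of -0.77 and -0.79. Son, a speckle scaffold protein, had 482, 544, 464 and 238 CPM in the low-Malat1 barcodes and 1499, 1579, 1206 and 1410 in the Meis2 reference (log2 -1.44 ± 0.16). Srrm2, the other core speckle protein, fell by 1.03, and Rbm39, a splicing factor, by 0.72. Ogt, the enzyme that adds O-linked N-acetylglucosamine, fell by 2.54. Ddx5, an RNA helicase and the most abundant gene of the list, did not pass the test at 1765 ± 193 against 1779 ± 366 CPM (SD, n = 3, adjusted p 0.71).

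Genes outside these lists were also among the largest falls. Tafa1, which encodes a secreted neuronal protein and spans 544045 bases, had no UMI in any low-Malat1 barcode of the 4 libraries. In the Meis2 reference of the 3 tested libraries it had 215 UMIs, or 90.4 CPM, and against a floor of 3 UMIs over the low-Malat1 barcodes of those libraries it was at least 12.3-fold lower. Lrrtm3, a synaptic adhesion protein, and Lrrc7, a postsynaptic scaffold protein, each had 1 UMI in the low-Malat1 barcodes, in control 2. Their reference levels were 132 ± 43.1 and 123 ± 36.8 CPM. Fat3, a giant atypical cadherin, had 1 UMI in control 2 and 1 in CKO 2, against 103 ± 31.1 CPM in the reference. The non-coding gene A330076H08Rik had 3 UMIs in all, against 462 ± 95.2 CPM. The genes 2900052L18Rik, Tmem44 and Gm16152, named after their values were seen, also had no UMI in the low-Malat1 barcodes and were at least 8.6-fold, 7.6-fold and 6.6-fold lower against the same floor. Other large falls outside the lists were those of the uncharacterised non-coding loci Gm16141, B230216N24Rik, Gm4258 and 2610027F03Rik, with log2 changes of -4.24, -4.08, -3.68 and -3.63.

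Growth cone and cytoskeleton genes were mostly higher, although the motor that carries cargo along axons was not. Of 30 tested genes on the list, 19 were higher and 2 lower against each reference, with median log2 fold changes of 0.70 and 0.68. Gap43, a growth cone membrane protein, had 2350, 1810, 1127 and 1487 CPM in the low-Malat1 barcodes and 1294, 952, 727 and 783 in the Meis2 reference. It was higher in 4 of 4 libraries, by 1.90-fold in the fit (log2 0.93 ± 0.15, adjusted p 3.4e-05), though the ranges of the kinds overlap between libraries. Actb, beta-actin, had 7902, 7957, 8533 and 7553 CPM against 4670, 5016, 4084 and 3807, with no overlap (log2 0.90 ± 0.13). Tmsb4x, an actin monomer binder, was higher by 1.09, Stmn1, a microtubule destabiliser, by 0.96, and Stmn2, its neuronal relative, by 0.54. Tuba1a and Tubb2b, the main tubulins of young neurons, did not pass the test, with changes of 0.22 ± 0.14 and 0.09 ± 0.15.

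Kif5c, the neuronal kinesin heavy chain, had 289, 308, 420 and 297 CPM in the low-Malat1 barcodes against 956, 1121, 1092 and 889 in the reference. This is a 3.07-fold difference downwards (log2 -1.62 ± 0.18, adjusted p 2.8e-07) and the libraries do not overlap. The other gene of the list that was lower against the Meis2 reference was Map2, the dendritic microtubule-associated protein, whose call was lost in 9 of 14 alternative analyses. Against the matched reference it was Rtn1, a reticulon of the endoplasmic reticulum.

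Presynaptic genes were mostly lower. Of 16 tested, 10 were lower and 3 higher against the Meis2 reference (median -0.91), and 11 of 18 were lower and 3 higher against the matched reference (median -1.01). Slc17a6, the vesicular glutamate transporter of these neurons, was at 132 ± 40.3 against 393 ± 23.3 CPM (log2 -1.34 ± 0.22), and the calcium sensor Syt1 was lower by 0.56 (adjusted p 0.038, lost in 6 of 14 alternatives). The 3 higher genes were Cplx2, Rab3a and Vamp2, which encode small proteins of the vesicle release machinery. Cplx2 had 456, 256, 398 and 535 CPM against 223, 122, 84.0 and 186, (log2 1.35 ± 0.22), with no overlap between the ranges. DESeq2 called 5 lower and 2 higher, and without control 2 there were 5 lower and 1 higher.

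Of 23 tested genes of the endoplasmic reticulum, 10 were lower, 2 were higher and 11 did not pass against the Meis2 reference, with a median of -0.50. The lumenal chaperones Hspa5 and Hsp90b1 were lower by 1.18 and 1.08 on the log2 scale, and Calr, a calcium-binding chaperone, by 0.66. The 2 higher genes were Sec61b and Sec61g, the small subunits of the protein translocation channel. Sec61g had 605, 787, 354 and 952 CPM against 351, 385, 227 and 204 (log2 0.99 ± 0.18), and Sec61a1, the large subunit, was among the lower genes but lost its call in 10 of 14 alternatives. DESeq2 called 4 lower and 1 higher of the 23, and the same counts held without control 2.

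Ribosomal protein genes were higher without exception among those tested. All 81 tested of 84 listed were higher against each reference, with median log2 fold changes of 1.00 and 0.95, where 19.0% and 17.3% of all tested genes were higher. DESeq2 called 78 of the 81 against the Meis2 reference. Their summed share of UMIs outside the genes of the rule was 13.1%, 12.8%, 11.2% and 8.93% in the low-Malat1 barcodes and 7.70%, 6.79%, 5.93% and 4.96% in the Meis2 reference. Of 16 translation factors, 15 were higher and none lower. Eef1a1, which brings transfer RNAs to the ribosome, had 4692, 4432, 4974 and 4758 CPM against 2998, 2230, 2101 and 2321 (log2 1.03 ± 0.14). Eef2, the translocation factor, was higher by 0.91, and Tpt1, a growth-related protein with a highly translated message, by 0.95.

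Nuclear genes for oxidative phosphorylation were higher although the rule had set the mitochondrial genome low. Of 79 tested, 62 were higher and none lower against the Meis2 reference (median 0.89), and 59 were higher against the matched reference. Atp5e, a subunit of ATP synthase, was at 852 ± 307 against 445 ± 136 CPM (log2 1.06 ± 0.17), and Cox7c, of cytochrome c oxidase, was higher by 0.71. Cox4i1 did not pass the test at 0.26 ± 0.17. DESeq2 called 35 of the 79, and without control 2 the count was 28 of 77. Where the Meis2 reference was limited to at most 3% mitochondrial UMIs, as the low-Malat1 barcodes were, 55 of 75 were higher with a median of 0.95.

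**Figure D3:**
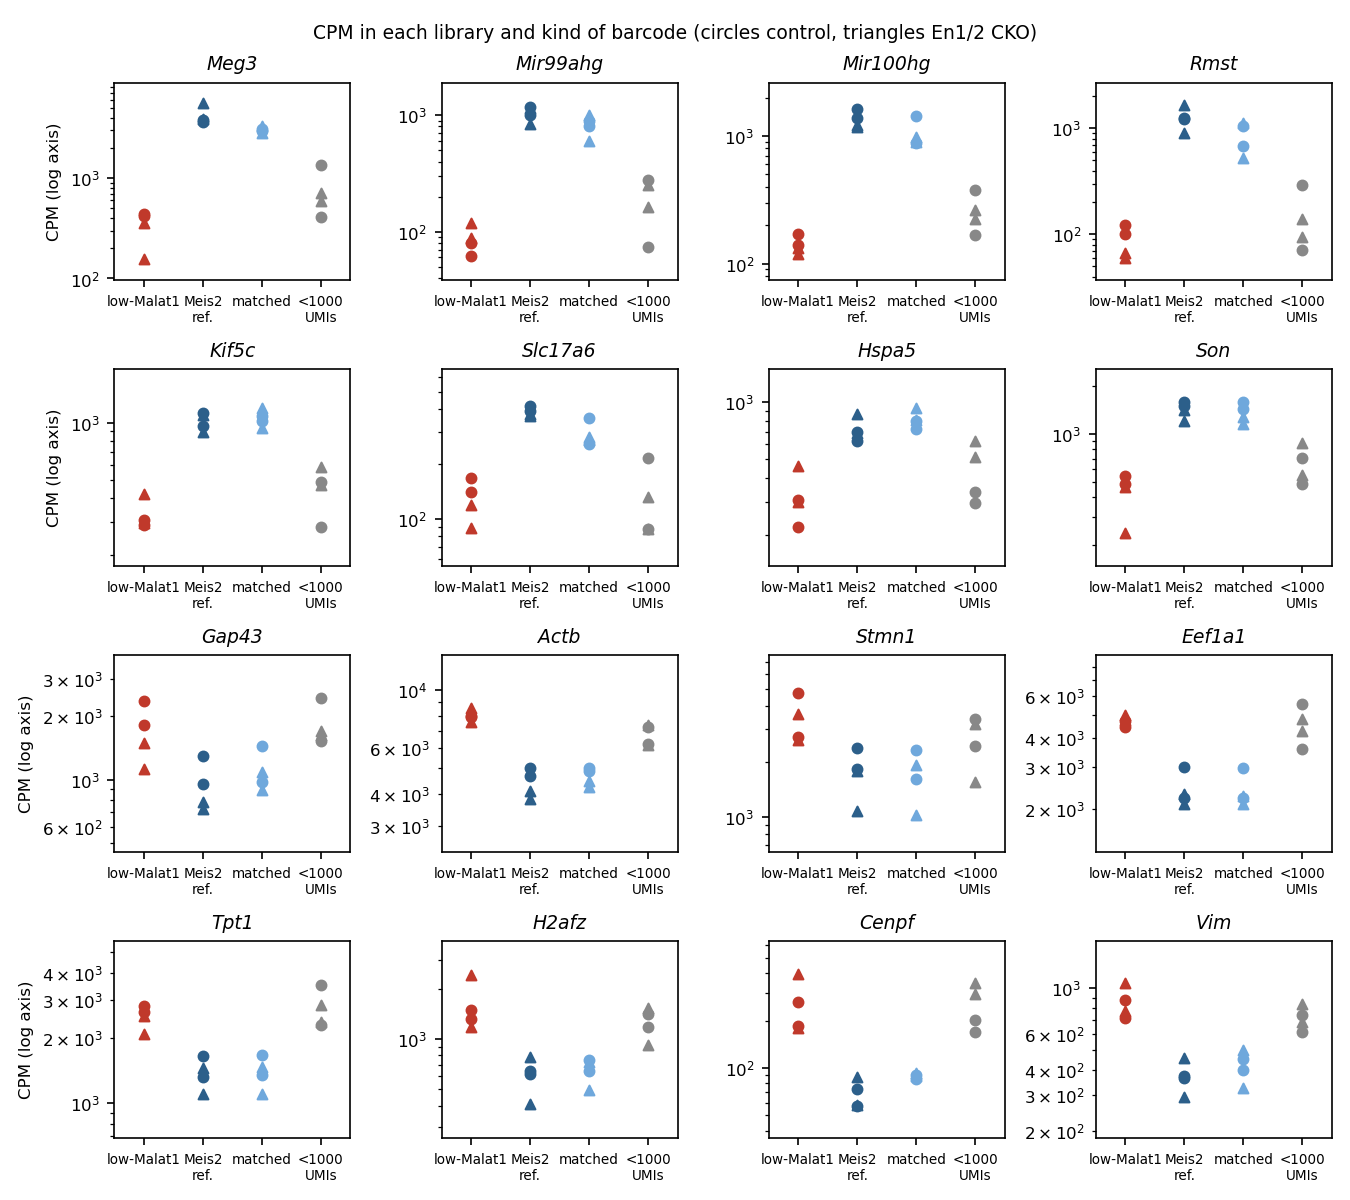
CPM (log axis) of 16 genes in each library, in low-Malat1 barcodes, the Meis2 reference, the matched reference and barcodes under 1000 UMIs; circles are control and triangles En1/2 CKO libraries. Meg3 lies between 155 and 439 CPM in low-Malat1 barcodes and between 3639 and 5542 in the Meis2 reference, while Actb lies between 7553 and 8533 against 3807 to 5016.

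Nuclear proteins did not follow the nuclear RNAs. Of 23 genes for chromatin and other nuclear proteins, 16 were higher and 3 lower against each reference. H2afz, a histone variant, had 1500, 1327, 2410 and 1190 CPM against 647, 620, 777 and 408, without overlap (log2 1.37 ± 0.15). Ptma, prothymosin alpha, was higher by 1.04 and H3f3a, the replacement histone H3.3, by 0.98. The 3 lower genes, Ankrd11, Kmt2a and Chd3, encode large chromatin regulators.

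Most tested mitotic markers were higher too. Of 7 tested mitotic markers, 6 were higher and none lower against the Meis2 reference, and 7 of 8 against the matched reference. Without CKO 1 the first count was 4 of 7, and without control 2 it was 3 of 5. Cenpf, a kinetochore protein, had 263, 184, 398 and 178 CPM in the low-Malat1 barcodes and 73.0, 57.2, 88.2 and 58.3 in the Meis2 reference, a 3.82-fold difference without overlap (log2 1.93 ± 0.25, adjusted p 2.4e-06). Top2a, the topoisomerase of mitotic chromosomes, had 342, 164, 442 and 833 CPM against 101, 91.3, 134 and 153. Mki67, a marker of cycling cells, did not pass the test (0.86 ± 0.38). The same direction held for Ccna2, Tpx2, Ube2c, Cenpa and Smc4, which act in mitosis, and for Hist1h1b, a linker histone made in S phase, with log2 changes between 1.75 and 2.14. The remaining genes among the 12 largest rises were Fabp7, Anp32b, Usp1, Hmgb2 and D030056L22Rik. Hmgb2, a chromatin protein of proliferating cells, was higher by 1.79.

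Fabp7, a fatty acid binding protein of radial glia, had 421, 99.9, 663 and 833 CPM against 93.9, 38.3, 67.2 and 58.3 in the Meis2 reference (log2 2.24 ± 0.28). Vim, the intermediate filament of progenitors, had 877, 715, 1061 and 773 CPM against 372, 364, 458 and 295 (log2 1.21 ± 0.16). Both passed against each reference, and 2 of the 3 listed genes tested against the Meis2 reference were higher. Against the matched reference 2 of 5 were higher and 1 was lower, Ptprz1, a receptor phosphatase of radial glia, at a log2 change of -3.84. Over the whole list of 10 glia and progenitor markers, each had at least 1 UMI in low-Malat1 barcodes. Their summed level was 907 to 2078 CPM, and 495 to 695 in the Meis2 reference. The 8 mitotic markers summed to 965, 735, 2299 and 2022 CPM in control 1, control 2, CKO 1 and CKO 2, against 340 to 466 in the Meis2 reference. Both signals were uneven among the low-Malat1 barcodes: after each was reduced to 1000 UMIs, Fabp7 was seen in 30 of the 295, and 15 of them held 80.3% of its UMIs. Cenpf was seen in 41, with 62.9% of its UMIs in 15 barcodes. Whether a mixture of cell types among these barcodes takes part in the results above was not tested.

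The gene that had been proposed as a marker without entering the rule, Gng8, a G protein gamma subunit, gave 6, 33, 0 and 0 UMIs in the low-Malat1 barcodes. It did not pass the test against the Meis2 reference (log2 0.52 ± 0.37, adjusted p 0.27) or the matched one (0.76, adjusted p 0.076). Growth cone, ribosomal protein and oxidative phosphorylation genes were mostly higher than in the Meis2 reference, as were mitotic messages, Fabp7 and Vim. Most presynaptic genes and Kif5c were lower. Nuclear long non-coding RNAs were mostly lower too, which the Malat1 limit of the rule can set. Against barcodes under 1000 UMIs, described below, no gene of the growth cone, ribosomal protein, oxidative phosphorylation, presynaptic and mitotic lists passed in either direction. Those small barcodes were not chosen on neurofilament, so these values cannot decide on the name neurite-like, which was not tested. The barcodes are therefore called here by their rule.

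The barcodes still carried markers of the sorted lineage. All 11 granule lineage markers and all 14 markers of excitatory cerebellar nuclei neurons had at least 1 UMI over the 295 barcodes. The same held for all 10 glia and progenitor, 8 mitotic, 4 unipolar brush cell and 9 erythroid markers, so detection alone does not tell the lineage. The granule list summed to 3403, 2298, 3272 and 4520 CPM in the low-Malat1 barcodes of control 1, control 2, CKO 1 and CKO 2. It was higher in the matched reference of each library, at 4195, 3220, 4351 and 5174 CPM. Against that reference 1 of 10 tested granule markers was higher and 2 were lower. In the Meis2 reference the list summed to 2778 to 4583 CPM. Barhl1, a homeobox factor of the rhombic lip, had 377, 208, 685 and 952 CPM against 233, 143, 202 and 255 (log2 0.99 ± 0.22), and Cntn2, an axonal adhesion protein of young granule cells, was lower by 1.63. The nuclei neuron list summed to 1000 to 1802 CPM against 2744 to 3479. Of 11 nuclei neuron markers tested, 6 were lower and none higher, which the choice of the reference by Meis2 can set. Against the matched reference 4 of 10 were lower, Meis1, Zfhx4, Slc17a6 and Zfhx3, with a list median of -0.23. Of 34 neuronal transcription factors tested against the Meis2 reference, 5 were higher and 11 lower, with a list median of 0.06. Over all tested genes 19.0% were higher and 21.6% lower, with a median of -0.07. Sox11, of immature neurons, was higher by 0.57, while Ebf1, with a gene span of 390775 bases, was lower by 1.84.

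Markers of cells outside the lineage were few. All 7 mesenchyme markers were at 0 UMIs in the low-Malat1 barcodes. Endothelial markers gave 5 UMIs in all, with Kdr, Flt1 and Ly6c1 at 0, and microglia markers gave 20 UMIs, all in control 2, with Csf1r, Cx3cr1 and Trem2 at 0. In control 2 the microglia list summed to 79.9 CPM, above the 12.4 of the Meis2 reference and the 29.4 of the matched reference. Of the 11 GABAergic markers, Pax2, Ptf1a, Calb1, Skor2 and Dlx6os1 were at 0. The summed GABAergic level was 119 to 202 CPM against 75.6 to 204 in the reference, and that of hindbrain and cranial neuron markers 78.9 to 168 against 126 to 212.

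Haemoglobin messages were the most uneven of all. In control 2 they were widespread at low levels, and only 10 of 168 low-Malat1 barcodes had no haemoglobin UMI. At 1000 UMIs each, 56.5% of the low-Malat1 barcodes of control 2 held at least 2 haemoglobin UMIs, against 32.3% of its Meis2 reference. In control 1, CKO 1 and CKO 2, 64 of 85, 23 of 30 and 12 of 12 low-Malat1 barcodes had none. In 1 low-Malat1 barcode of control 1 and 3 of control 2, haemoglobin genes made up over 1% of UMIs, with maxima of 55.5% and 68.9%. All 4 haemoglobin genes tested were higher against the Meis2 reference, and in control 1 a single barcode held 322 of 324 Hba-a1 UMIs. Without these 4 barcodes 1027 genes were higher and 1185 lower, and 81 ribosomal protein genes, 62 oxidative phosphorylation genes and 6 mitotic markers were again higher. Of 1958 genes with at least 30 UMIs at 1000 UMIs per barcode, 62 had a variance over 1.5 times the mean within libraries. The median ratio was 1.09. Counting error dominates this ratio where a gene has so few UMIs per barcode, so it cannot show whether the barcodes are alike or mixed.

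Length of the gene went with the direction of the change. Tested protein-coding genes were sorted by coding length into 5 groups of equal size (GENCODE M21). In the group with coding lengths of 111 to 672 bases, 54.1% were higher and 2.15% lower, with a median log2 fold change of 0.78. In the group of 2832 to 23151 bases, 1.12% were higher and 44.0% lower, with a median of -0.74. The 3 groups between followed in order, with medians of 0.34, -0.08 and -0.38. With ribosomal protein, oxidative phosphorylation and haemoglobin genes left out, the end groups had 47.4% higher and 44.3% lower. This is a description across genes, which are not independent replicates.

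The same shift was present in every library when UMIs were summed. Genes of the shortest group held 38.01%, 42.5%, 36.0% and 30.1% of the coding UMIs in the low-Malat1 barcodes, and 24.9%, 25.6%, 22.4% and 19.1% in the Meis2 reference. Genes of the longest group held 12.2%, 10.0%, 12.8% and 15.7% against 21.8%, 20.6%, 23.8% and 25.8%. Neither pair of ranges overlaps. Among non-coding genes of any kind, 50 of 84 were lower and 9 higher, against 1121 and 1022 of 5349 coding genes.

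**Figure D4:**
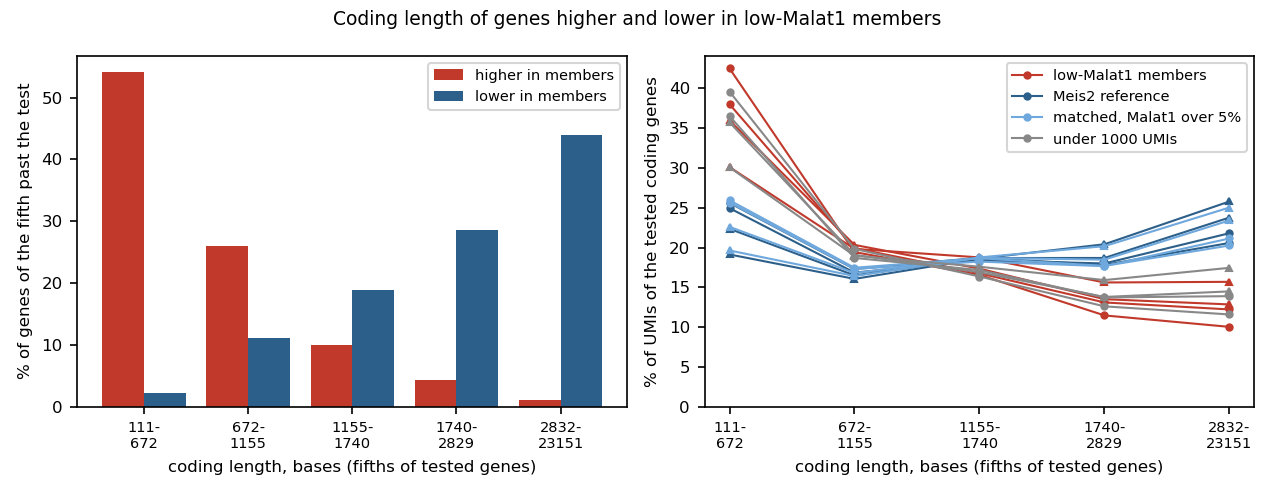
Left, share of tested protein-coding genes past the test in low-Malat1 barcodes against the Meis2 reference, by quintile of coding length in bases (red higher, blue lower). Right, share of coding UMIs in each quintile per library and kind of barcode; low-Malat1 barcodes and barcodes under 1000 UMIs run together from 30.1% or more at the short end, above both references.

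Barcodes with fewer UMIs had much the same profile. An added comparison set the low-Malat1 barcodes against all barcodes under 1000 UMIs of the same libraries (2114, 464, 697 and 798 barcodes). Only 13 of 5742 genes passed the test (0.226%), 5 higher (0.0871%) and 8 lower (0.139%), and 355 had an unadjusted p under 0.05. Over the 5033 genes tested against both, the median absolute log2 fold change was 0.24 against the small barcodes and 0.63 against the Meis2 reference, with median standard errors of 0.36 and 0.33. Those small barcodes were not chosen on Malat1, yet their median Malat1 share was 1.45% to 2.01%. Their ribosomal share was 14.45%, 10.8%, 11.3% and 10.1% of UMIs outside the genes of the rule. Genes of the longest coding group held 11.6% to 17.4% of their coding UMIs. A p that misses the threshold does not show that the kinds are alike: 4 of 15 tested nuclear long non-coding RNAs were lower still in the low-Malat1 barcodes, with a list median of -0.69. The 5 higher genes were Fabp7 and the haemoglobins Hbb-bs, Hbb-bt, Hba-a2 and Hba-a1, whose UMIs lie mostly in few barcodes. No ribosomal protein, oxidative phosphorylation or cytoskeleton gene of the lists passed in either direction, with list medians of 0.06, 0.12 and 0.16.

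Neurofilament-positive barcodes of any mitochondrial share were binned by Malat1. Nuclear long non-coding RNAs made up 0.488%, 0.546%, 0.531% and 0.498% of UMIs outside Malat1 and the mitochondrial genome where Malat1 was at most 1%. Where Malat1 was above 10%, the shares were 1.22%, 1.68%, 2.26% and 1.76%. Ribosomal protein genes went the other way, from 10.9%, 10.7%, 8.86% and 8.06% in the lowest bin to 7.26%, 6.87%, 5.40% and 4.60% in the highest. The bins between were not in strict order. In control 2 the ribosomal share was 11.4% in the bin of 1% to 2%, above the lowest bin, and in CKO 2 the nuclear RNAs were at 1.61% in the bin of 2% to 3% and 1.36% in the next. In CKO 2 the bin of 1% to 2% held only 19 barcodes. The median mitochondrial share in the lowest bin was 5.39% to 13.9%, so this contrast was present without the mitochondrial limit.

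**Figure D5:**
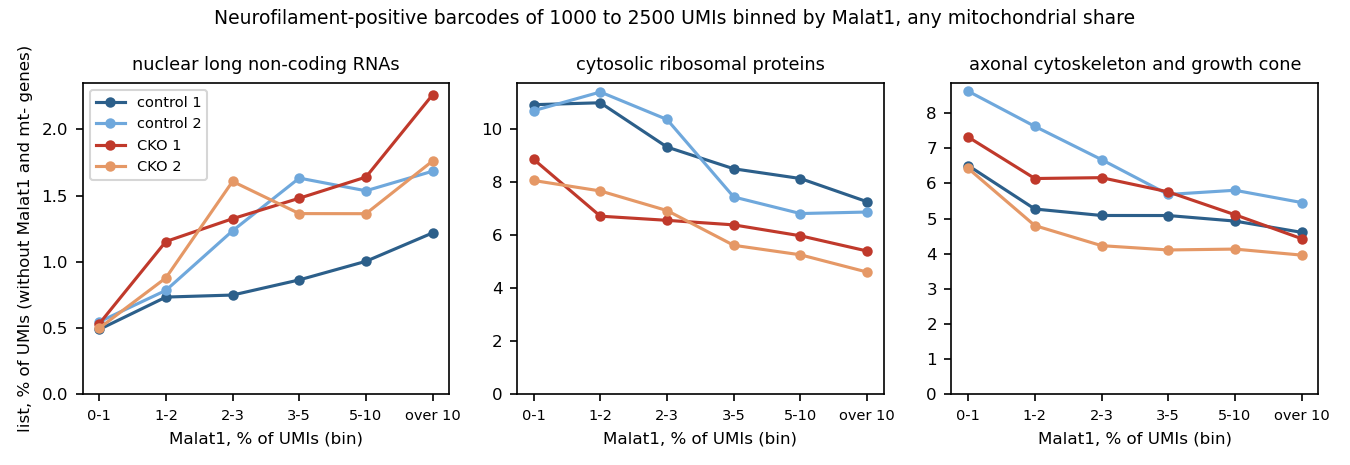
Share of UMIs (y axis, %) of 3 gene lists in neurofilament-positive barcodes of 1000 to 2500 UMIs, by bin of Malat1 share (x axis), 1 line per library. Nuclear long non-coding RNAs are at 0.488% to 0.546% in the lowest bin in all libraries, and ribosomal protein genes fall from the lowest to the highest bin in each.

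Reduced to 1000 UMIs each, the low-Malat1 barcodes showed a median of 724, 705.5, 729.5 and 751.5 genes, and the Meis2 reference 698, 672, 681 and 703. Before this reduction the medians were 869.5 to 968 genes against 1122 to 1229. Malat1 and mitochondrial UMIs stayed in the 1000, so the rule itself leaves the reference fewer UMIs for other genes, and no difference in the number of genes is read from these values.

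The low-Malat1 barcodes were a smaller share of each CKO library than of each control library. Among barcodes of 1000 to 2500 UMIs with at least 500 genes, they made up 3.13% in control 1 (85 of 2712, exact 95% interval 2.51% to 3.86%) and 4.70% in control 2 (168 of 3576, 4.03% to 5.44%). The shares were 1.37% in CKO 1 (30 of 2196, 0.924% to 1.94%) and 0.603% in CKO 2 (12 of 1990, 0.312% to 1.05%). The intervals cover counting error only. The means were 3.92% ± 1.11 (SD, n = 2) and 0.985% ± 0.540, and the exact two-sided permutation test gave p = 0.33, the smallest that 2 against 2 libraries allow. Among neurofilament-positive barcodes alone the shares were 5.78%, 5.33%, 1.91% and 2.04%. With the Malat1 limit at 1% the means were 1.34% ± 0.325 and 0.752% ± 0.353, and the difference shrank from -2.93 to -0.584 points. Depth also differed with genotype. CKO 1 and CKO 2 held 27138010 and 33709450 UMIs in 4983 and 5170 barcodes. Control 1 and control 2 held fewer UMIs, 21351661 and 14998150, in more barcodes, 7083 and 6135. The fixed UMI range may therefore take a different part of the barcodes in each group. Genotype and depth cannot be told apart here, and the part of depth in the difference was not tested.

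The limits acted differently in each library. Of neurofilament-positive barcodes, 11.6%, 19.6%, 3.70% and 17.1% met the mitochondrial limit, and 22.5%, 12.6%, 28.6% and 9.17% met the Malat1 limit. CKO 1 thus lost most at the mitochondrial limit and CKO 2 at the Malat1 limit, and the part of either in the difference was not tested.

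The targeted genes were sparse in the low-Malat1 barcodes. En2 gave 26, 64, 2 and 1 UMIs, or 228, 256, 44.2 and 59.5 CPM, and En1 gave 33, 79, 4 and 2 UMIs, or 289, 316, 88.4 and 119 CPM. Both were lower in each CKO library than in each control library, and neither passed the test in the 3 libraries fitted (log2 -2.60 ± 0.83, adjusted p 0.176 for En2; -1.94 ± 0.67, adjusted p 0.232 for En1; edgeR). In the Meis2 reference En2 was at 257, 202, 96.6 and 94.7 CPM, whereas En1 was at 626, 634, 941 and 1603. The labels do not say which part of each gene is deleted, so counts at the 3′ end may not check the deletion.

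Within the low-Malat1 barcodes, the fit of 3510 genes had 2 control libraries and 1 CKO library, which is assumed to vary as the controls do, so genotype and the deviation of CKO 1 cannot be told apart. In that fit 18 genes passed (0.513%), 5 higher and 13 lower in CKO 1, while the median absolute log2 difference was 0.58. Haemoglobin genes were 6 of the 13, and without the barcodes over 1% haemoglobin 10 of 3235 genes passed, 4 higher and 6 lower. The higher genes named by size were Hist1h1b, Tpx2, Pclaf (a replication clamp partner), H2afx and Anp32b. The 7 mitotic markers tested had log2 differences of 0.71 to 2.41 (median 2.06), where the median over all genes was -0.06. The 23 chromatin and nuclear protein genes had a median of 0.08. With 1 CKO library in the fit, these are effect sizes only. The list of 8 mitotic markers summed to 965 and 735 CPM in control 1 and control 2, and to 2299 and 2022 in CKO 1 and CKO 2. Hist1h1b had 246, 116 and 1194 CPM in control 1, control 2 and CKO 1, from 28, 29 and 54 UMIs, with 11 of the 54 in 1 barcode (log2 2.65 ± 0.40, adjusted p 3.3e-08). In CKO 2 it had 4 UMIs, or 238 CPM, within the control range. The lower genes named by size were Sst, the neuropeptide somatostatin, Ndufc1, Hist3h2ba, Dync1i2 and Rps29. Sst had 19, 85 and 1 UMIs (log2 -3.70 ± 0.95, adjusted p 0.027), and 1 UMI in CKO 2. With all 4 libraries 4 of 1743 genes passed and none was higher, and DESeq2 called 1 of 3510. Each of the 10 named genes lost its call in 5 to 9 of its alternative analyses, Hist1h1b in 6 of 12.

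Whether the difference of CKO 1 from the controls depended on the kind of barcode was tested as an interaction with the Meis2 reference, again with 1 CKO library. Of 7651 genes, 1 passed (0.0131%), again Hist1h1b (log2 2.43 ± 0.49, adjusted p 0.0073), which had 73.0, 62.6 and 79.8 CPM in the reference of control 1, control 2 and CKO 1. With all 4 libraries Hist1h1b lost its call, and 1 other gene of 6899 passed, in the other direction. For En1 the interaction was -2.63 ± 0.67 and did not pass (adjusted p 0.226).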

How the data were processed

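Single-cell RNA sequencing of tdTomato-sorted cells gave 4 libraries. The authors deposited raw UMI counts per gene and barcode, made with Cell Ranger 5.0.0 per the file headers and the submitters' processing notes, which also name the build mm10. Filtering by the authors is not given in the sources used here, and no doublet caller was run. The rule was applied to every deposited barcode, and UMI counts were summed per library and kind of barcode. Sums were tested with edgeR 4.0.16 (quasi-likelihood F test, TMM, filterByExpr, Benjamini-Hochberg over all genes tested, threshold 0.05), with library as a block. Rule genes (Malat1, mitochondrial genes, Nefl, Nefm, Ina, Tubb3, Meis2) were left out of tests and totals. CPM are plain counts scaled to the total outside these genes, and fold changes come from the TMM fit. For the comparison with the Meis2 reference, the test on simulated counts of 5369 genes called 47.7% of genes changed 2-fold, 92.5% of those changed 4-fold and 0.0771% of unchanged genes.

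The barcodes, gene lists and tests were chosen with earlier results of these data known. Genes were named by a rule: the proposed markers, up to 4 most abundant tested genes of each list and list genes that passed, and up to 12 genes each way with the largest change, at least 100 CPM in the higher kind and 1 direction in every library tested, haemoglobins left out. Within genotypes these numbers were 5 genes, 50 CPM and no overlap. Coordinates are from GENCODE M21 (GRCm38), in which 5433 of 5435 tested identifiers were found. DESeq2 1.42.0, other scalings, filters, limits and references, and each library left out were tried as alternatives. Intervals on shares are exact (Clopper-Pearson, 95%), and the shares were compared by an exact permutation test over libraries.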

Additional observations from a re-analysis of the deposited data

Results flagged for a closer look

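Hist1h1b, a linker histone of S phase, was picked out because its difference between CKO 1 and the controls was larger in the low-Malat1 barcodes than in the Meis2 reference, by an interaction of 2.43 on the log2 scale (edgeR, adjusted p 0.0073). The difference came from CKO 1, where 12 of 30 low-Malat1 barcodes held its 54 UMIs, and CKO 2, with 4 UMIs or 238 CPM, was not in that fit. With 1 CKO library genotype and the deviation of that library cannot be told apart, and with all 4 libraries the gene did not pass.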

How the results depend on the processing

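The number of genes called against the Meis2 reference (2203) fell to 982 with DESeq2, 1330 with the reference held to 3% mitochondrial UMIs, 1251 with low-Malat1 barcodes of at most 1% Malat1 and 1423 with each barcode thinned to 1000 UMIs; against the matched reference (2517) the first 3 of these gave 1155, 1550 and 1373. Leaving out 1 library gave 1107 to 2317 and 1099 to 2605, lowest without control 2. Fewer genes were tested in most of these fits, and the rest of the cause was not tested. Over the 91 genes named in the comparison with the Meis2 reference, 1160 of 1243 values under alternatives kept direction and side of the threshold, 60 lost the call, 14 gained one and 9 changed sign. Those 9 belong to genes that had not passed: Ddx5 (-0.015 without TMM factors, -0.024 without the filter, -0.089 with the mitochondrial limit on the reference), Hsp90aa1 and Ier2 (0.048 and -0.012 with that limit) and Tubb2b (-0.019 without the filter). With 1 library left out, Hsp90aa1 ranged from -0.078 to 0.036, Tuba1a from -0.007 to 0.392 and Tubb2b from -0.178 to 0.219. Hspa8 and Vamp2 lost the call in 8 and 7 of 14 alternatives. Without the replicate block, that is, with libraries unpaired between kinds, 1866 and 2007 genes passed.

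Within the low-Malat1 barcodes, the 18 genes called between genotypes became 1 with DESeq2, 7 without the low-count filter, 4 with thinning, 10 without haemoglobin-rich barcodes, 4 with all 4 libraries and 4 with all 4 and a replicate block. Leaving out 1 of the 4 leaves 1 library in a group, so no count is read from those fits. The fit without CKO 2 is the main fit itself and adds an unchanged value to the alternatives of each gene. H2afx turned to -7.147 without CKO 1, since CKO 2 had no UMI of it. The interaction called 3 genes without TMM factors. For the share of barcodes, the difference of -2.93 points lay between -3.58 (neurofilament-positive barcodes as denominator) and -0.584 (Malat1 at most 1%), and between -3.71 and -2.15 with 1 library left out; with a replicate block the exact p was 0.5. Deviations of libraries with the same number correlated at -0.07 in the low-Malat1 barcodes and -0.36 over all barcodes. Each is 1 correlation over 4 libraries, so it cannot show whether or how the libraries pair. Crossed pairing, added after seeing the data, called 23 genes. The all-library, haemoglobin and under-1000-UMI fits were also added after seeing the data. The number of low-Malat1 barcodes limits CKO 2 most, where there were 12 and 1 UMI is 59.5 CPM.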

Other observations

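Immediate early genes passed about as often as all tested genes, of which 19.0% were higher. Of 6 immediate early genes tested against the Meis2 reference, Jund, a member of the AP-1 family, was higher (log2 0.89 ± 0.17, adjusted p 0.00019, edgeR) and none was lower. Jun, at 88.0 ± 58.2 against 64.0 ± 20.9 CPM (SD, n = 3), and Ier2, at 107 ± 62.7 against 43.9 ± 26.4 CPM, did not pass. Of 8 chaperone and ubiquitin genes tested, Hspe1, Ubb, Hsp90ab1 and Hspa8 were higher and none was lower, and Hspa8 lost its call in 8 of 14 alternatives. Hsp90ab1, a constitutive cytosolic chaperone, was higher by 0.58, while its inducible relative Hsp90aa1 had a change of -0.04 ± 0.14. None of the 3 unipolar brush cell markers tested passed, and their list median was -0.08.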
